A study of Homo sapiens with 18 samples.

Results

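The comparison of ethanol with medium at 24 h asks what the solvent ethanol alone does to the RNA of HK-2 cells. HK-2 is an immortalized line of human renal proximal tubular epithelial cells, so every sample is a culture of the same line. The comparison holds 6 of the 18 arrays of the series: 3 arrays titled as ethanol controls and 3 titled as medium controls, each of cells treated for 24 h. They were chosen by title alone, and no measured value entered the choice.

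The series measured control treatments that belong to a wider study of compounds toxic to the kidney. The groups used here are cells in medium alone (3 arrays), cells in medium with ethanol (3 arrays) and, side by side, cells in medium with DMSO (3 arrays), all at 24 h, with medium and ethanol at 48 h (3 arrays each) as a second time. All groups share a medium with EGF, hydrocortisone, insulin, transferrin and selenite, and all were treated near confluency. The dose of ethanol is not given in the sources used here, and the text on the series gives 12 h where the sample labels give 24 h. The labels were used.

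Ethanol reaches every compartment of a cell, and is oxidised by alcohol and aldehyde dehydrogenases in cells that carry them. An epithelial cell on plastic holds its shape with actin filaments, which CDC42, the WASP proteins, cofilin and its regulators build and take apart. Free actin in turn controls the factor SRF through its MRTF partners, and stretch and adhesion act on YAP and TEAD, so that genes of the contractile apparatus and the matrix follow the state of the actin skeleton.

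Values are log2 expression on HG-U133 Plus 2.0 arrays, so a difference of 1 is 2-fold. A gene was tested where its probe set was above 4, about the level of background, on at least 3 of the 18 arrays, which gave 10832 genes. Of 20 proximal tubule markers 18 were on the array and 4 were above that level on any of the 6 arrays compared: CDH6, PAX8, DPP4 and VCAM1. The apical uptake receptors LRP2 and CUBN and the phosphate transporter SLC34A1 stayed below it, with highest values of 2.95, 2.14 and 2.97. The 9 endothelial and 10 immune markers on the array all stayed below it too. Markers of other kinds were above it: 4 of 6 podocyte markers and 3 of 11 of distal tubule and collecting duct. So were 3 of 12 of fibroblast and smooth muscle and 2 of 8 keratinocyte markers. The highest values were 13.38 for PTPRO (podocyte), 9.42 for SCNN1A (distal) and 11.92 for SFN (keratinocyte).

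Ethanol replicate 3 stood apart from the other ethanol arrays. At 24 h, 1195 genes differed by more than 1 between that array and the mean of ethanol replicates 1 and 2, and 485 of them were higher in replicate 3. The same count was 298 for ethanol replicate 1, 428 for ethanol replicate 2 and 125 for medium replicate 3. On the second principal component over all 18 arrays it lay at -52.3, the other ethanol arrays of that time at 6.41 and 7.14. The array of ethanol replicate 3 at 48 h lay at -61.6. Results are therefore given with and without these 2 arrays.

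At 24 h, 8 genes were lower with ethanol than in medium and none passed as higher (limma, adjusted p under 0.05 by Benjamini-Hochberg over 10832 genes, 0.0739% of those tested). Of these genes, 5 were entered together in a list of actin regulators: MTSS2, CDC42EP3, RTKN2, SSH1 and WIPF2. That list was written with earlier results of these data known, so the count is no separate evidence. TAGLN, a contractile gene of the SRF-linked list, had the largest fall. UBASH3B, a phosphatase that acts on receptor tyrosine kinases, and DPY19L1, a C-mannosyltransferase of the endoplasmic reticulum, were the others. Adjusted p lay between 0.0486 and 0.0497, just inside the threshold.

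TAGLN (transgelin, an actin-binding protein of smooth muscle and stressed epithelium, chr11:117199294-117207465, GRCh38.p14) measured 7.21, 4.39 and 5.72 in medium, against 3.11, 2.56 and 3.34 with ethanol. All 3 ethanol arrays lay under every medium array and under the background level, so the size of the difference is not exact. It was -2.77 ± 0.46 (SE, n = 3 against 3; adjusted p = 0.0486 in limma). A second TAGLN probe set gave -1.49. With DMSO the values were 6.40, 6.13 and 6.02, within the medium range.

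MTSS2 codes for a protein of the missing-in-metastasis family, which bends membranes and binds actin (chr16:70661204-70686053). It measured 5.64, 4.15 and 5.65 in medium, against 2.73, 2.85 and 3.39 with ethanol, again with no overlap and with all ethanol arrays near background. The difference was -2.15 ± 0.34 (SE, n = 3 against 3; adjusted p = 0.0486 in limma).

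CDC42EP3, an effector of CDC42 that shapes septin and actin fibres (chr2:37641944-37672949), measured 9.14, 9.26 and 9.63 in medium, against 8.30, 7.99 and 8.57 with ethanol. These levels are far above background, and the 2 sets of arrays were separate. The difference was -1.06 ± 0.18 (adjusted p = 0.0497 in limma), and the other 3 probe sets of the gene lay between -1.42 and -0.74.

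SSH1, a phosphatase that switches on the actin-severing protein cofilin (chr12:108778191-108857583), measured 7.36, 7.17 and 6.93 in medium, against 6.21, 6.13 and 6.10 with ethanol. The ethanol arrays were close to each other, and the lowest medium array lay above them all. The difference was -1.0 ± 0.16 (adjusted p = 0.0486 in limma), and a second probe set gave -0.44.

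WIPF2, a partner of the WASP proteins that start actin branches (chr17:40219304-40284136), measured 9.47, 9.32 and 9.47 in medium, against 8.78, 8.69 and 8.84 with ethanol. Both sets were tight and did not overlap. The difference was -0.65 ± 0.11 (adjusted p = 0.0486 in limma), and its other probe sets gave -0.72 and -0.59.

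RTKN2 lies at chr10:62183900-62268844. Its values were 5.22, 4.74 and 4.37 in medium, 3.85, 3.86 and 3.60 with ethanol, and 3.87, 3.82 and 3.87 with DMSO. Here the DMSO arrays were as low as the ethanol arrays. The difference from medium was -1.0 ± 0.17 with ethanol (adjusted p = 0.0497 in limma) and -0.92 ± 0.17 with DMSO, which share the medium arrays, and ethanol against DMSO gave -0.08. Of the 8 genes, the 7 others passed between ethanol and DMSO as well, where 0.619% of genes did. That comparison uses the same ethanol arrays and the same estimate of the spread, so these passes are no separate evidence.

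UBASH3B (chr11:122655722-122814473) measured 9.23, 9.02 and 9.01 in medium, against 8.30, 8.43 and 8.21 with ethanol, a difference of -0.77 ± 0.12. DPY19L1 (chr7:34928881-35038041) measured 10.25, 10.13 and 10.16 in medium, against 9.55, 9.51 and 9.31 with ethanol, a difference of -0.72 ± 0.12. For both, all ethanol arrays lay well below all medium arrays, and the adjusted p was 0.0486 in limma. The 4 probe sets of UBASH3B and the 2 of DPY19L1 were all lower.

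**Figure D1:**
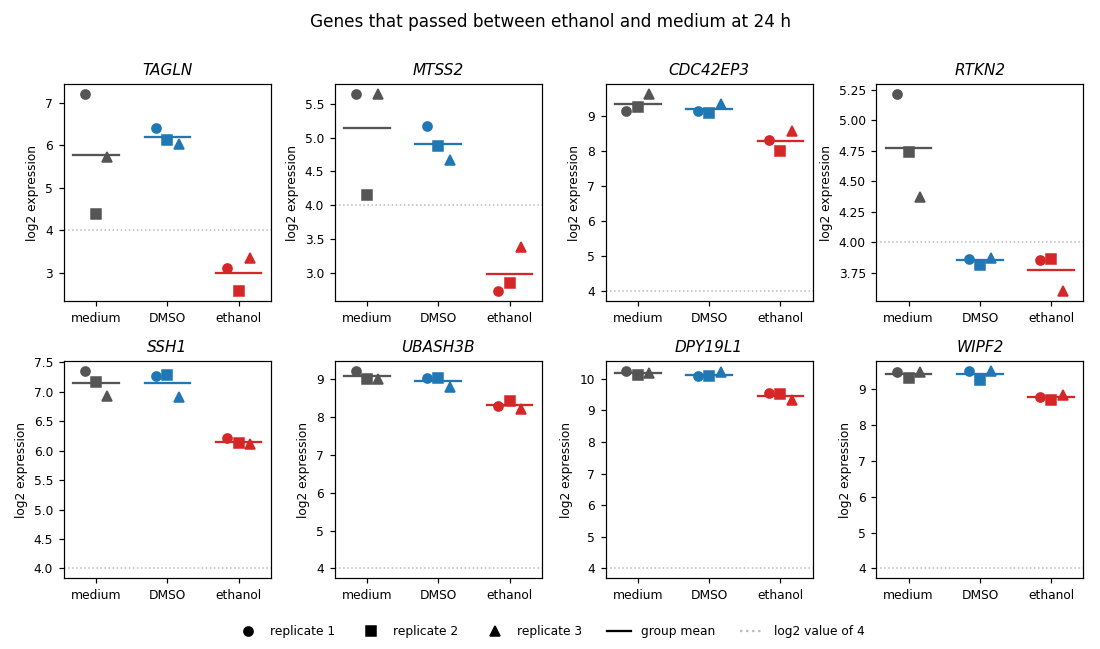
Log2 expression of the 8 genes that passed, by array at 24 h (y axis, log2; x axis, medium, DMSO and ethanol; symbols mark replicate numbers, bars the mean of 3 arrays, the dotted line a log2 value of 4). In every panel the ethanol arrays lie below all medium arrays, and only for RTKN2 do the DMSO arrays lie with them.

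Without both arrays of ethanol replicate 3 all 8 genes passed, with differences from -2.94 for TAGLN to -0.65 for DPY19L1. In that fit 144 genes passed (1.33%), 52 higher and 92 lower. The count of 8 depends on single arrays, since it was 0 without ethanol replicate 1, 0 without replicate 2 and 40 without replicate 3. It was 0, 2 and 1 without medium replicates 1, 2 and 3. At an unadjusted p under 0.05 there were 965 genes, 287 higher and 678 lower, where chance gives 541.6.

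Replicate numbers are shared between the groups, and arrays of the same number deviated together, most clearly for number 3 and least for number 1. A fit with the replicate number as a block was therefore set beside the first. Over all 18 arrays the block gave 111 genes (1.02%), 22 higher (0.203%) and 89 lower (0.822%), and held all 8 genes above. On the 9 arrays of 24 h alone it gave 20 genes (0.185%), 6 higher (0.0554%) and 14 lower (0.129%), of which 15 were among the 111. Of the 8 genes CDC42EP3, SSH1 and WIPF2 passed there, and the other 5 did not, with adjusted p of 0.0542 for UBASH3B, 0.0733 for DPY19L1, 0.0955 for RTKN2, 0.0975 for MTSS2 and 0.101 for TAGLN in limma. On the 6 arrays compared it gave none, with a smallest adjusted p of 0.339. The 111 genes therefore draw on the spread and the numbering of arrays outside this comparison. Of the genes named below, MAP2, TLN1, TPMT, CFB, HLA-B, HLA-J and TEAD2 also passed with the block on the 24 h arrays. PROM1 passed with the block on the 24 h arrays alone. Others said to pass, rise or fall with the block did so over 18 arrays.

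Of the 111 genes, 21 differed by 2-fold or more, 17 lower and 4 higher. In 100 the 3 ethanol and 3 medium arrays did not overlap, a count that the call on these same arrays largely fixes (14.6% of all genes did not overlap). MAP2, which binds microtubules, measured 7.02, 7.4 and 5.65 in medium, against 5.04, 5.09 and 3.45 with ethanol. Replicate 3 was the lowest of both groups, and within each replicate number ethanol was lower. The difference was -2.16 ± 0.60 (adjusted p = 0.243 in limma, 0.0213 with the block and 0.021 with the block on the 24 h arrays).

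TLN1, talin, which ties integrins to actin, measured 7.61, 7.13 and 7.88 in medium, against 6.36, 5.55 and 6.61 with ethanol. All ethanol arrays lay below all medium arrays. The difference was -1.37 ± 0.34 (adjusted p = 0.189 in limma, 0.0012 with the block, 0.021 with the block on the 24 h arrays).

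SLC7A11, the cystine importer that feeds glutathione synthesis, measured 6.58, 6.95 and 6.93 in medium, against 4.84, 6.02 and 4.48 with ethanol, a difference of -1.71 ± 0.39 (adjusted p = 0.132 in limma, 0.0376 with the block). Its second probe set gave -0.44. Others of the 10 largest falls among the 89 were SLIT2, a secreted guidance protein, at -1.31, the noncoding FTX at -1.30, the tubulin TUBB4A at -1.23, LYPD1 at -1.20 and the keratin KRT80 at -1.13. These 5 passed with the block over 18 arrays and not with the block on the 24 h arrays, at adjusted p of 0.0409, 0.038, 0.0389, 0.0452 and 0.0389 in the limma fit over 18 arrays.

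Of the 22 genes that rose with the block, the 10 with the largest differences are described here; none of them passed in the fit of all 18 arrays without it. Among larger mean differences that did not pass, 2.89 for LCN2 and 2.29 for CCL20 rest on ethanol replicate 3 and are given further on. That of CDH11, 2.96, rests on ethanol replicates 1 and 2. SERPINA6, at 2.25, measured 6.44, 6.71 and 6.19 in medium, against 7.89, 7.83 and 10.38 with ethanol. Its 3 ethanol arrays lay above all medium and DMSO arrays. When every probe set was tested it passed with the block (adjusted p = 0.0477 in limma) and not without it (0.1028). HS3ST1, a heparan sulfate sulfotransferase, measured 4.45, 4.68 and 4.63 in medium, against 5.89, 5.92 and 7.96 with ethanol. The 3 ethanol arrays lay above all medium and DMSO arrays, and replicate 3 was the highest. The difference was 2.00 ± 0.40 (adjusted p = 0.0802 in limma, 0.0295 with the block), and 1.32 without the arrays of ethanol replicate 3 (adjusted p = 0.0048).

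ABCA12, a lipid transporter, measured 7.73, 8.35 and 7.74 in medium, against 8.95, 9.40 and 9.74 with ethanol, and the groups did not overlap. The difference was 1.43 ± 0.29 (adjusted p = 0.091 in limma, 0.0083 with the block). SOD2, the mitochondrial superoxide dismutase and a target of NF-kB, measured 9.01, 9.14 and 9.35 in medium, against 9.60, 9.95 and 11.23 with ethanol. Its difference was 1.09 ± 0.38 (adjusted p = 0.42 in limma, 0.035 with the block), but 0.61 without the arrays of ethanol replicate 3, an array on which it stood clearly higher.

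CFB, complement factor B, measured 7.21, 7.33 and 6.54 in medium, against 7.98, 8.18 and 7.45 with ethanol, a difference of 0.84 ± 0.33 (adjusted p = 0.458 in limma, 0.0492 with the block, 0.0448 with the block on the 24 h arrays). The clock-linked repressor BHLHE41 was at 0.85 and the homeobox gene MEIS1 at 0.81. The histone gene H3-3A was at 1.08, and TPMT, a thiopurine methyltransferase, at 0.88, although a second TPMT probe set gave 0.06. TPMT was also lower with DMSO than in medium, at -0.43, so its ethanol and DMSO arrays lay on opposite sides of medium.

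Control probe sets of the array were ordered like TPMT, highest with ethanol and lowest with DMSO. This held for all 5 ribosomal RNA probe sets above the level and for all 18 of the hybridisation spike-ins, which are added to each sample and carry no cell RNA. The spike-ins differed between ethanol and medium by 0.21 to 0.61, with a median of 0.33, and in 16 of the 18 every ethanol array was above every medium array. Of 24 labelling spike-ins 10 had that order, with a median of 0.05. The 28S probe set at the 5' side measured 9.39 ± 0.39 in medium, 10.58 ± 0.24 with ethanol and 7.94 ± 0.36 with DMSO (SD, n = 3 each). The mitochondrial ND6, the ribosomal RPL27A and TCTN2, which rose with the block by 0.56, 0.63 and 0.67, were likewise at -0.68, -0.49 and -0.30 with DMSO. The part of these control signals in the rises with ethanol, the HLA genes included, was not tested.

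HLA class I genes, whose products show peptides at the cell surface, made up 4 of the 22 rises with the block: HLA-B, HLA-F, HLA-G and the pseudogene HLA-J. HLA-B measured 12.39, 11.92 and 12.16 in medium, 12.28, 12.08 and 12.22 with DMSO, and 12.99, 12.82 and 13.01 with ethanol. Every ethanol array was above every medium and DMSO array. The difference was 0.78 ± 0.17 (adjusted p = 0.0984 in limma, 0.0386 with the block, 0.0448 with the block on the 24 h arrays) and 0.75 without the arrays of ethanol replicate 3.

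After these values were seen, all HLA class I probe sets above the level were looked at. The 17 probe sets of 6 genes differed by 0.44 to 0.89, and in 16 of them the ethanol arrays lay above all medium arrays, against 5.61% of all genes tested. The exception was a probe set of HLA-E. In the fit by gene 1.02% of all genes passed with the block. Of the 17 HLA probe sets, 9 did so when every probe set was tested, and none passed without it. The HLA class I genes are so alike that most of the probe sets can bind RNA of several of them, so they do not count as separate evidence.

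Other genes of the same pathway mostly differed less. B2M, the shared light chain, was at 0.35 and 0.27 in its 2 probe sets, and in both the ethanol arrays lay above all medium arrays. The same held for PSMB9, at 0.31. TAP1, which pumps peptides to the class I molecules, was at 0.06, the chaperone TAPBP at -0.19 and the proteasome subunit PSMB8 at 0.27, all with overlap. ERAP2 was at -0.05, but another of its probe sets was at 0.45 with no overlap. These genes too were taken after the HLA values were seen, and none passed.

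**Figure D2:**
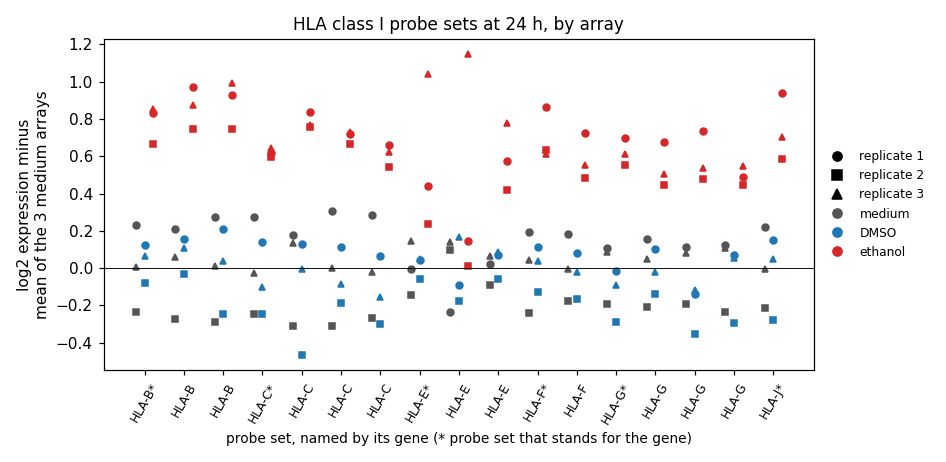
HLA class I probe sets at 24 h (y axis, log2 expression minus the mean of the 3 medium arrays; x axis, 17 probe sets named by gene; colours mark the treatment, symbols the replicate number). In 16 of 17 probe sets the 3 ethanol arrays lie above all medium arrays, while the DMSO arrays lie near the medium arrays.

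HLA-B and CFB, both on chromosome 6, are shown, chosen because they had a match, by the stretch of their promoters that holds an NF-kB motif, since HLA class I, CFB and SOD2 are known targets of that factor. The sequences are from RefSeq on GRCh38.p14, 5′ to 3′ on the strand of the gene, with the motif in capitals. The HLA-B stretch (chr6:31357286-31357416, minus strand) runs from base -237 to -107 before the start of the gene, and holds 2 overlapping windows. The CFB stretch (chr6:31945923-31946052, plus strand) runs from base -172 to -43.
HLA-B: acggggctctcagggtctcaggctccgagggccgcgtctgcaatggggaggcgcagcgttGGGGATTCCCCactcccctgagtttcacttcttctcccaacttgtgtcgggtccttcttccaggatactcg
CFB: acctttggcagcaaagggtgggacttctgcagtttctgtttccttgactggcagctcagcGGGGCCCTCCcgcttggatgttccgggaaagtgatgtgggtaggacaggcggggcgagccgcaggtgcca

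Across promoters of 300 bases, none of the 4 motifs searched on both strands set the called genes clearly apart. The NF-kB motif was in 3 of the 18 promoters found for the 22 rises (16.7%) and in 7 of the 74 found for the 89 falls (9.5%), against 12.9% of 8979 promoters of tested genes. The CArG box, to which SRF binds, was in none of either set, against 1.0%. The TEAD motif GGAATG was in 16.2% of the falls and 11.1% of the rises, against 10.3%. For the interferon response motif ISRE the shares were 2.7% and 11.1%, against 2.7%. The CFB promoter held the TEAD and ISRE motifs as well, and these are not marked above. TAGLN is not in the promoter table. For HLA-F, HLA-G and SOD2 the first promoter in the table held no NF-kB motif in this window.

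The lists of pathway genes show how far the 8 genes stand for their groups. The median difference over all 10832 genes was -0.03, and 8.95% of genes were lower with no overlap between arrays. In the list of actin regulators, which holds the cofilin, CDC42 and WASP families, 5 of 36 tested members fell and none rose, 26 were below 0, and the median was -0.18. With the block EVL, which lengthens actin filaments, was added at -0.82. The GTPase CDC42 itself was at -0.06 ± 0.14. This list was written around families of genes already known to be called, so its count is no separate evidence.

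Of 21 SRF-linked contractile genes TAGLN alone fell, and with the block also TLN1 and MYH9, the heavy chain of non-muscle myosin, at -0.53. The median was -0.25, with 16 members below 0 and 4 lower with no overlap. Another 2 were higher with no overlap, where 5.61% of all genes were. The smooth muscle actin gene ACTA2 was at 0.06 ± 0.19, with no call in either fit.

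No member of the TGF-beta and matrix list (18 genes) passed, with or without the block. Its median was nonetheless -0.53, with 14 members below 0, and 5 were lower with no overlap. THBS1, a matrix glycoprotein that activates TGF-beta, measured 9.23, 8.49 and 8.95 in medium, against 6.62, 6.42 and 8.19 with ethanol, with replicate 3 closest to medium. The difference was -1.81 ± 0.55 (adjusted p = 0.311 in limma), and -2.37 without the arrays of ethanol replicate 3 (adjusted p = 0.0142).

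No member of the YAP and TEAD list (18 genes) passed either. Its median was -0.29 with 16 members below 0 and 6 lower with no overlap. TEAD2, a TEAD factor outside this list, passed with the block and not without it. It was at -0.95 (adjusted p = 0.0083 in limma with the block, 0.0448 with the block on the 24 h arrays). Other TEAD2 probe sets gave -0.47, -0.42 and 0.07. CCN2, the best-known target of YAP, measured 10.03, 9.20 and 9.79 in medium, against 8.17, 8.56 and 8.45 with ethanol, a difference of -1.28 ± 0.45 (adjusted p = 0.416 in limma, 0.213 with the block), and -1.31 without the arrays of ethanol replicate 3 (adjusted p = 0.0299). Relative to the mean of medium, this list's median lay at -0.39, -0.40 and -0.42 on the 3 ethanol arrays, and at 0.10, -0.23 and 0.10 on the medium arrays. Measured from that mean, it hardly differed between the ethanol arrays, while the SRF-linked list ran from -0.52 to -0.09. Set against the medium array of the same number, the YAP and TEAD list was less even. Replicate 2 lay closest to its medium array, which was itself at -0.23.

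Among 20 integrin and focal adhesion genes none passed, and with the block PXN (paxillin) fell by 0.81 and PARVA (parvin) by 0.48. The list's median was -0.15. UBASH3B was the 1 of 20 genes of EGF ligands, receptors and ERK feedback that fell, with a median of -0.27 and 16 members below 0.

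Of 12 fibroblast and smooth muscle markers on the array 3 were above the level: DCN, COL1A1 and LUM. The probe sets of COL1A1 disagreed: the one used was at -0.60, and the others tested were at -0.02 and 1.07. DCN, a matrix proteoglycan, measured 12.20, 12.13 and 11.69 in medium, against 11.09, 10.75 and 11.14 with ethanol, a difference of -1.02 ± 0.48 that did not pass (adjusted p = 0.573 in limma). The log2 of the 12 markers' summed level ran from 12.20 to 12.67 on the medium arrays, 12.03 to 12.51 with DMSO and 11.61 to 11.73 with ethanol. That sum is of unlogged values, so DCN makes up most of it and the ranges largely repeat DCN. LUM lay between 9.60 and 10.33 on the 6 arrays compared. The defining PDGFRA, PDGFRB, DES and MYH11 stayed near background, none above 2.96. In such cultures fewer cells of a kind and less RNA per cell cannot be told apart, and the part of these markers in the lower matrix genes was not tested.

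**Figure D3:**
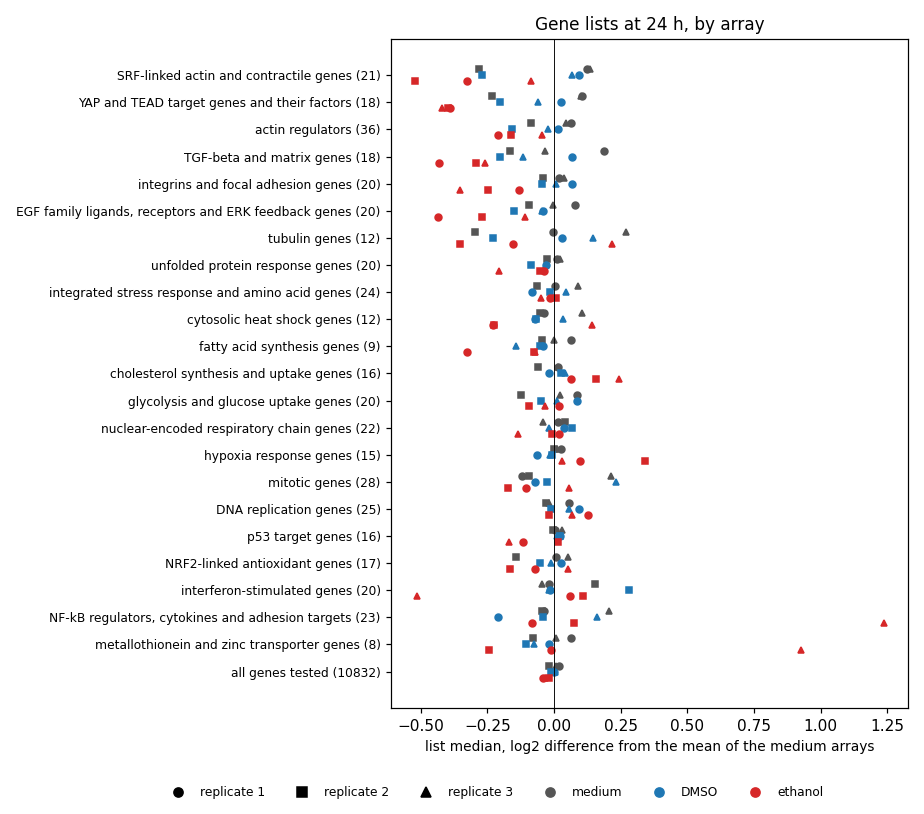
Median of each gene list on the 9 arrays at 24 h (x axis, log2 difference from the mean of the 3 medium arrays; y axis, lists with the number of genes tested; colours mark the treatment, symbols the replicate number). The YAP and TEAD list lies near -0.4 on all ethanol arrays and at -0.23 on medium replicate 2. The NF-kB and metallothionein lists lie at 1.24 and 0.93 on ethanol replicate 3. On ethanol replicates 1 and 2 the NF-kB list lies at -0.08 and 0.07, and the metallothionein list at -0.01 and -0.24.

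In the list of alcohol and aldehyde metabolism no gene passed. Only 6 of 19 listed genes were above the level. ADH5, the dehydrogenase found in all tissues, was at -0.08 ± 0.10, and ALDH1B1 at 0.22 ± 0.28, with 0.84 in a second ALDH1B1 probe set that did not pass. The list's median was -0.04, and 0.20 without the arrays of ethanol replicate 3; by ethanol array it was 0.16, 0.20 and -0.37.

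No gene of the stress lists passed at 24 h without the block. HSPA5, the chief chaperone of the endoplasmic reticulum, measured 12.83, 12.66 and 13.11 in medium, against 12.47, 12.51 and 12.52 with ethanol, a difference of -0.37 ± 0.18. DDIT3 was at 0.18 ± 0.47 and HMOX1 at -0.08 ± 0.26. In the unfolded protein response list (20 genes) the median was -0.07, and none passed. With the block BAG3, a partner of heat shock proteins, fell by 0.47 (1 of 12 heat shock genes; adjusted p = 0.032 in limma), and ZMAT3, a p53 target, fell by 0.64 (1 of 16; adjusted p = 0.0399 in limma). SLC7A11, given above, was the 1 of 24 integrated stress response genes. The p53 target CDKN1A was at -0.16 ± 0.27 and the cycling marker MKI67 at 0.01 ± 0.24. A difference that misses the threshold with 3 arrays a group does not show that the levels were equal.

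None of 15 kidney injury genes passed over 18 arrays, with or without the block. HAVCR1, which codes for KIM-1, measured 11.16, 11.36 and 11.25 in medium, against 11.19, 10.90 and 10.98 with ethanol. CLU was at 0.24 ± 0.29 and SPP1 at 0.22 ± 0.10. The SPP1 level was near the top of the scale, and a second SPP1 probe set was at 1.31, with 6.20, 5.92 and 6.32 in medium against 7.17, 7.51 and 7.69 with ethanol. When every probe set was tested it passed with the block (adjusted p = 0.0369 in limma) and not without it (0.0812).

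SOX9, a factor of tubule repair, measured 7.96, 7.65 and 7.97 in medium, against 5.93, 4.78 and 8.63 with ethanol. Replicates 1 and 2 lay below all medium arrays and replicate 3 above them. The difference was -1.42 ± 0.68 (adjusted p = 0.575 in limma), and -2.51 without the arrays of ethanol replicate 3 (adjusted p = 0.0146). PROM1, a progenitor marker, passed with the block on the 24 h arrays alone, at 1.30 (adjusted p = 0.044 in limma, 0.196 with the block over 18 arrays).

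Of the lipid genes FASN was the only call. FASN, fatty acid synthase, measured 10.38, 9.79 and 10.34 in medium, against 9.17, 9.21 and 9.58 with ethanol, a difference of -0.85 ± 0.29 that passed with the block alone (adjusted p = 0.0303 in limma, 0.413 without it). Of 9 fatty acid genes 8 were below 0, and of 16 cholesterol genes 14 were above it, with medians of -0.18 and 0.16, where 56.9% of all genes were below 0. Without the arrays of ethanol replicate 3 the medians were -0.15 and 0.03. No cholesterol gene passed.

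Several of the genes that were highest on ethanol replicate 3 code for cytokines and other inflammatory proteins. LCN2, which codes for the injury marker NGAL, measured 3.11, 3.29 and 12.15 on the 3 ethanol arrays and between 3.16 and 3.45 in medium. CCL20, a chemokine, measured 4.55, 5.32 and 13.65 with ethanol, and the cytokine IL6 3.35, 3.87 and 11.59. On ethanol replicates 1 and 2 none of these genes was above its highest medium array.

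The matrix protease MMP1 measured 6.48, 5.09 and 13.08 with ethanol and 7.4, 7.30 and 7.52 in medium. TNFAIP6, a matrix protein induced by cytokines, measured 2.91, 2.92 and 10.33 with ethanol and 5.12, 5.42 and 6.85 in medium. In both, replicates 1 and 2 lay below all medium arrays and replicate 3 above them all. For TNFAIP6 the difference without the arrays of replicate 3 was -2.88 (adjusted p = 0.0048 in limma).

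The chemokine CXCL8 was high everywhere, at 12.64, 12.84 and 12.96 in medium, against 12.47, 12.65 and 14.57 with ethanol. The NF-kB list (23 genes) had a median of 0.50 over the 3 ethanol arrays and -0.02 without the arrays of replicate 3. By array its median was -0.08, 0.07 and 1.24. SOD2 was its only member to pass, with the block alone.

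Most of the 1195 genes that set ethanol replicate 3 apart were lower there. The cadherin CDH1 measured 8.14, 8.0 and 2.58 with ethanol and 7.04, 7.13 and 7.45 in medium. TMEM37 measured 9.87, 10.03 and 4.05, CA11 8.92, 9.33 and 3.14, and SLC44A5 9.21, 10.07 and 3.81. TMT1A, a methyltransferase, measured 9.89, 10.29 and 4.18. On replicates 1 and 2 all 5 were above their highest medium array, so the mean over 3 ethanol arrays describes none of them.

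**Figure D4:**
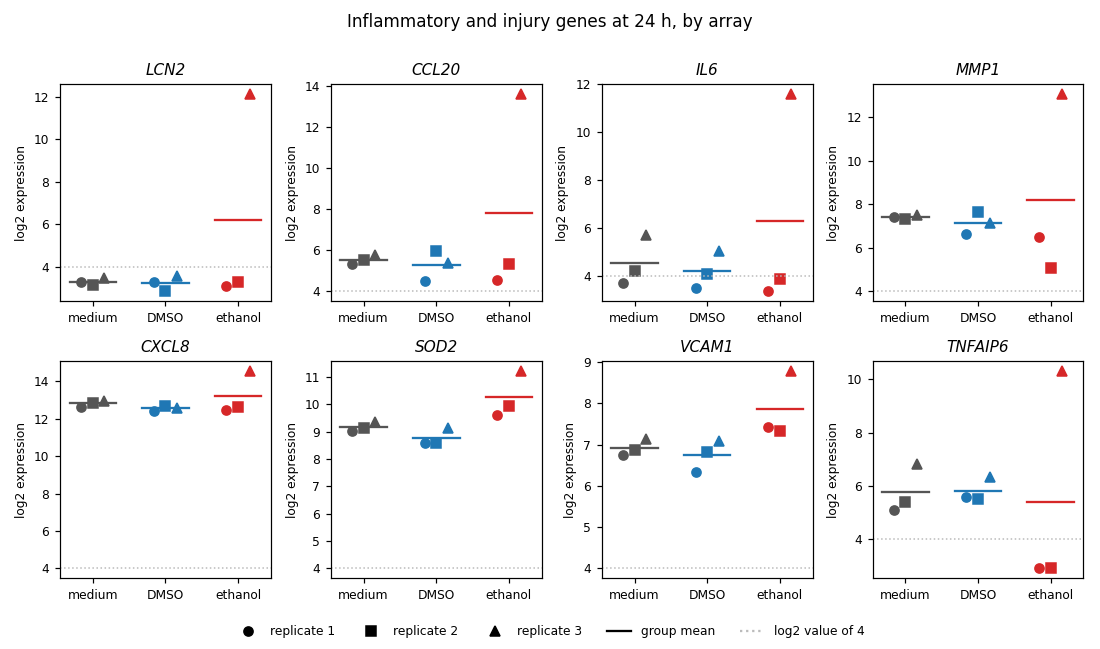
Log2 expression of 8 inflammatory and injury genes by array at 24 h (y axis, log2; x axis, medium, DMSO and ethanol; symbols mark replicate numbers, bars the mean of 3 arrays, the dotted line a log2 value of 4). Ethanol replicate 3 is the highest array in each panel, and for LCN2, CCL20 and IL6 the other ethanol arrays lie no higher than the highest medium array.

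The difference at 24 h was set against that at 48 h, which rests on other arrays. Of the 8 genes 7 were lower at 48 h and 5 passed there, where 15.3% of all genes did. Both times were tested with the same estimate of each gene's spread. A gene called at 24 h for a small spread was tested with that spread at 48 h too, so these passes are not fully separate evidence. The direction and size of the differences at 48 h do rest on other arrays. UBASH3B was at -1.22 ± 0.12, MTSS2 at -1.63 ± 0.34, DPY19L1 at -0.73 ± 0.12, WIPF2 at -0.64 ± 0.11 and SSH1 at -0.55 ± 0.16. TAGLN was at -0.31 ± 0.46 and RTKN2 at -0.08 ± 0.17, but all medium arrays of 48 h were under 4 for both (TAGLN 3.09, 3.18 and 3.61; RTKN2 3.80, 3.91 and 3.87), so a fall could not have been seen there.

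CDC42EP3 differed between the times: it was 8.29 ± 0.29 with ethanol and 9.34 ± 0.26 in medium at 24 h (SD, n = 3), and 0.26 ± 0.18 higher with ethanol at 48 h. The change of its difference was 1.32 ± 0.26 (adjusted p = 0.0168 in limma). In that test 172 genes passed (1.59%), 152 of them with a higher difference at 48 h (1.4%).

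SLC7A11 turned from -1.71 at 24 h to 2.48 ± 0.39 at 48 h, a change of 4.19 ± 0.55 (adjusted p = 0.0013 in limma). HSPA5 went from -0.37 to 2.38 ± 0.18, DDIT3 from 0.18 to 3.49 ± 0.47 and the chaperone HYOU1 from -0.39 to 2.5 ± 0.34, and each change passed. The unfolded protein response and the integrated stress response lists, with medians of -0.07 and 0.00 at 24 h, were at 1.80 and 1.45 at 48 h. The median of the actin regulators was -0.18 at 24 h and -0.17 at 48 h.

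Of the 111 genes that passed with the block, 102 had the same sign at 48 h, against 64.4% of all genes, and 40 passed there in the same direction. All 22 rises and 80 of the 89 falls kept their sign. The time difference passed for 5 of the 111. The 111 were called in a fit that held the 48 h arrays as well, which set its spread and its replicate term.

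**Figure D5:**
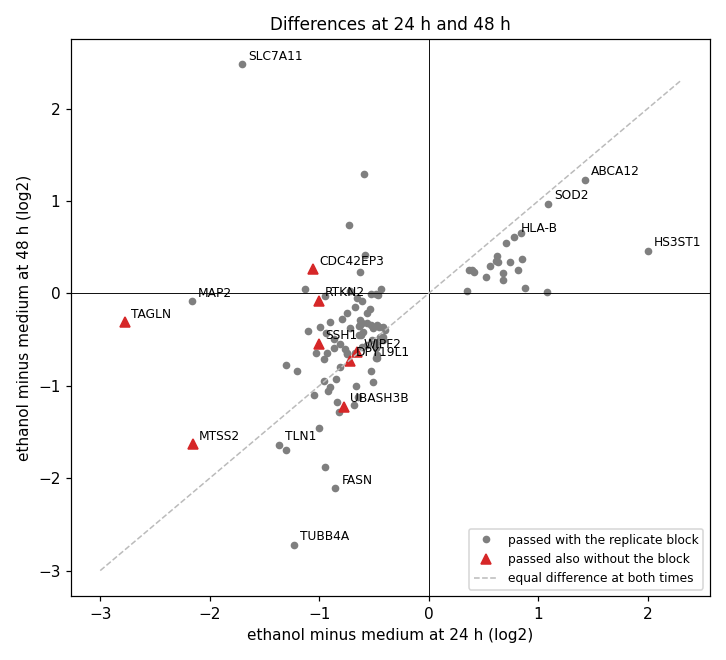
Ethanol minus medium at 24 h (x axis, log2) against 48 h (y axis, log2) for the 111 genes that passed with the replicate block; triangles mark the 8 that passed without it, and the dashed line equal differences. Points in the lower left and upper right kept their sign, and SLC7A11 lies at the upper left, at -1.71 and 2.48.

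The third pair of arrays gave a further look, chosen after the data were seen. With replicates 1 and 2 of all groups alone, 6 genes passed, 3 higher and 3 lower. In pair 3, 2 of the 3 falls were lower and none of the 3 rises was higher. With the block 88 genes passed. Of the 54 falls among them 39 were lower in pair 3, where 57.1% of all genes were lower, and their median went from -1.05 to -0.34. Of the 34 rises 12 were higher in pair 3, where 42.9% of all genes were higher, and their median went from 1.25 to -0.14.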

How the data were processed

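RNA from 18 cultures was measured on HG-U133 Plus 2.0 arrays, 3 for each of 6 groups. The authors deposited 1 normalized value per probe set, made with GCRMA per the submitters' processing notes; that these deposited values are log2 was read from the values. Of 54675 probe sets 41091 named 1 gene in the platform annotation, 41037 of them with a current RefSeq symbol. Per gene the probe set with the highest mean stood for it, if above log2 4 on at least 3 arrays (10832 genes). Arrays were grouped by title.

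A 6-group linear model over 18 arrays was fitted with limma 3.58.1 in R 4.3.3 with empirical Bayes, and p was adjusted by Benjamini-Hochberg at 0.05. A fit with the replicate number as a block was set beside it: deviations of same-numbered ethanol and medium arrays correlated at 0.22, 0.37 and 0.48, each over 0.1, which was taken as pairing. Ethanol 1 with medium 2 and ethanol 2 with medium 1 were over 0.1 as well, each at 0.16. Pairs of unlike numbers that held a number 3 lay between -0.49 and -0.21. The criterion thus sets number 3 apart more than it separates numbers 1 and 2. The labels call the replicates biological and say no more about the cultures, so p-values measure the spread between these arrays. Precision is set by how many arrays a group has. The code was tested on simulated data.

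Genes are named where they passed; where they were among the 10 largest rises or falls with the block that did not overlap and had the same sign in all pairs; where they led a pathway list; where they were fixed injury and stress readouts; or where ethanol replicate 3 differed most from replicates 1 and 2. CDC42, ACTA2, ADH5, TEAD2, PROM1, and the other HLA genes and their pathway were chosen after their values were seen. So were the genes set beside the control probe sets, and the promoters shown. Members and lists were chosen with earlier results of these data known. Alternatives were other normalizations, filters, probe set rules, array subsets, weights and blocks.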

Additional observations from a re-analysis of the deposited data

Results flagged for a closer look

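The ethanol minus medium difference at 48 h departed from that at 24 h for 7 genes named above or in the pathway lists, by a test of the change itself (limma, adjusted p under 0.05). The change was 4.1869 for SLC7A11, 1.3167 for CDC42EP3, 2.8891 for HYOU1, 2.7436 for HSPA5, 3.3043 for DDIT3, -1.7376 for ALDH1B1 and -1.4661 for HMGCS1, in log2.

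Probe set 216405_at, for which the annotation lists no gene, was outside the genes compared and gave a signal with ethanol alone. It measured 3.37, 3.37 and 3.41 in medium and 12.49, 13.12 and 9.52 with ethanol at 24 h, a difference of 8.3287 ± 0.82 (SE, adjusted p = 0.000177 in limma). At 48 h it measured 11.63, 11.99 and 8.70 with ethanol, and none of the 12 medium and DMSO arrays of both times was above 3.66. Ethanol replicate 3 was the lowest ethanol array at both times.

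The 28S ribosomal RNA control probe set, likewise outside the genes compared, was 1.1959 higher with ethanol than in medium.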

How the results depend on the processing

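The number of genes that passed, ethanol against medium at 24 h, was 8 and moved widely. It was 0 with quantile normalization, 0 with trend and robust empirical Bayes, 0 on the 24 h arrays alone, 0 on the 6 arrays compared, 737 with array weights, 15 with no filter, 5 with the mean of a gene's probe sets, 19 for each probe set by itself, 144 without both arrays of ethanol replicate 3, and 0 to 40 when 1 array was left out. With the replicate block it was 111 on 18 arrays, 20 on the 24 h arrays, 0 on the 6 arrays, 59 with quantile normalization, 127 with median centring, 122 with trend and robust, 76 with a random block, 506 without both arrays of ethanol replicate 3, 2, 7 and 51 without replicate 1, 2 and 3 of both groups, and 88 with replicates 1 and 2 alone, the last chosen after seeing the data. The number of genes that passed, change from 24 h to 48 h in the ethanol minus medium difference, was 172, and was 580 with array weights, 508 with the block and 89 to 653 with 1 array left out; the 653 came without ethanol replicate 1 at 48 h and the 245 without ethanol replicate 3 at 24 h. The cause of these moves was not tested.

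Over 90 named genes and 28 settings, 2147 of 2517 values kept direction and call, 110 lost the call, 202 gained it and 58 changed sign, in 17 genes, none of them among the 8. With array weights P4HA2 was at -0.0914, MKI67 -0.0951, CXCL8 -0.2249, IL6 -0.7287, IFI44L 0.0116 and TXNIP 0.1871. Without ethanol replicate 3, at 24 h or at both times, MT1M was at -0.0266, LCN2 -0.0968, MT1G -0.1463, P4HA2 -0.1781, MKI67 -0.1898, CXCL8 -0.2561, IL6 -0.9143, ESAM 0.2046 and IFI44L 0.3072. With the block and without both these arrays LCN2 was at -0.0242, MKI67 -0.083, P4HA2 -0.109, MT1G -0.1116, CXCL8 -0.1825, IL6 -0.3001, HMOX1 0.00663, ESAM 0.0199, SLC2A3 0.0473 and TXNIP 0.1323. MKI67 was at -0.014 with median centring and -0.0165 with quantile normalization, with or without the block, and COL1A1 at 0.1475 with the mean of its probe sets. Without ethanol replicate 2 TFCP2L1 was at -0.0253 and DDIT3 at -0.135. Without medium replicate 1 MKI67 was at -0.103 and ESAM at 0.0793, without medium replicate 2 PLA2R1 at 0.00575 and ESAM at 0.0601, and without medium replicate 3 HMOX1 at 0.0388. With the block and without replicate 1 of both groups MKI67 was at -0.0499 and ESAM at 0.0926; without replicate 2 DDIT3 was at -0.0178, CLU -0.0732 and PLA2R1 0.1029; without replicate 3 LCN2 was at -0.0185, MKI67 -0.0787, MT1G -0.1202, P4HA2 -0.1434, CXCL8 -0.1831, IL6 -0.3366 and HMOX1 0.00398. None of these 17 genes passed in the fit of 18 arrays. With 1 array left out in turn, the other ends of the range were -1.402 for IFI44L, -0.76 for PLA2R1, -0.1972 for HMOX1, -0.3047 for ESAM, 0.1509 for MKI67, 0.5373 for DDIT3, 0.7942 for CXCL8, 0.8679 for MT1G, 0.8091 for P4HA2, 1.6793 for TFCP2L1, 1.0619 for MT1M, 3.2091 for IL6 and 4.4205 for LCN2.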

Other observations

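All 54613 probe sets that are no controls were also searched, after the data were seen, for probe sets in which ethanol replicates 1 and 2 lay far above every medium and DMSO array at 24 h; 7 did so by more than 2. Besides 216405_at, a probe set annotated to COX6A1, a subunit of the respiratory chain, measured 7.16, 8.98 and 2.73 with ethanol at 24 h and between 1.91 and 1.93 on the medium and DMSO arrays. At 48 h it measured 7.02, 7.44 and 2.71 with ethanol. A probe set annotated to the cadherin CDH11 measured 5.28, 7.77 and 2.60 with ethanol at 24 h, and 217676_at, for which no gene is listed, 6.44, 7.45 and 2.52. In all of these ethanol replicate 3 lay well below the other ethanol arrays.

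The limits of the comparison are its 3 arrays a group, an ethanol dose that is not given in the sources used here, and a treatment time on which the labels and the series text differ. Probe sets below log2 4 carry mostly background, so large differences that end there, as for TAGLN, MTSS2 and RTKN2, are not exact in size.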
